A study of Mus musculus with 16 samples.

Results

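The 10 genes described here belong to autophagy and to mitophagy, its form that removes mitochondria. They are Ulk1, Map1lc3a, Map1lc3b, Gabarapl1, Sqstm1, Bnip3, Bnip3l, Fundc1, Pink1 and Lamp2, and they were taken by symbol from a deposited table of 35682 mouse genes. All 10 were found, and all 10 passed the filter on low counts that left 10945 genes to test. RNA came from ventricular myocytes, the contracting muscle cells of the heart's ventricles, of 16 mice. Of these, 8 carried the transgene B3AR-Tg (B3AR stands for the beta-3 adrenergic receptor, a heart receptor for adrenaline and noradrenaline) and 8 were wild-type (WT) littermates. Both genotypes had undergone TAC (transverse aortic constriction, a narrowing of the aorta that makes the left ventricle pump against a higher pressure), and cells were taken 9 weeks later. No group without surgery was analysed here, so the comparison is between genotypes that both had TAC. The promoter that drives the transgene, the species of the receptor, and the age and sex of the mice were not given in the sources used here. Mouse Adrb3 held 0 to 4 counts in WT and 0 to 3 in B3AR-Tg, and it checks the labels only if the transgene is the mouse gene. Adgrb3, an adhesion receptor gene picked after its values were seen, held 0 to 3 counts in WT and 247 to 723 in B3AR-Tg, so every library fell on the side of its label.

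Autophagy wraps cytoplasm or organelles in a double membrane and delivers them to lysosomes, where they are broken down. The kinase encoded by Ulk1 starts the process, small ubiquitin-like proteins of the ATG8 family (among them LC3 and GABARAPL1) are attached to the growing membrane, and adaptors such as p62 (Sqstm1) tether the cargo to them. In mitophagy the cargo is marked either by PINK1, a kinase that builds up on damaged mitochondria and phosphorylates ubiquitin there, or by receptors that sit in the outer mitochondrial membrane and bind LC3, such as BNIP3, NIX (Bnip3l) and FUNDC1. LAMP2 is a protein of the lysosomal membrane that is needed for the last step, and its loss causes a cardiomyopathy in people (Danon disease). Heart muscle is densely packed with mitochondria, so their turnover has been widely studied in the loaded heart. Much of this control acts on proteins, which RNA levels do not show.

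Of the 10 genes, Pink1 was the 1 that passed the test, and it rose in B3AR-Tg. Its level was 1.26-fold that of WT, or 0.33 as a log2 fold change (standard error 0.08, edgeR adjusted p = 0.0249 over all genes tested). The other 9 did not pass. Among all genes tested, 4.91% passed in either direction, 2.03% as higher and 2.88% as lower, so a single call among 10 genes is near that background. In none of the 10 were the ranges of the genotypes apart, as they were in 0.448% of all genes tested. Of the 537 genes that passed, 41.3% were higher, and the share was 67.7% when libraries were scaled by their totals alone, which moved the median of all genes to 0.08 on the log2 scale. Pink1 passed under both scalings, with log2 fold changes of 0.33 and 0.41. Of the 10 genes, the 3 that encode outer membrane receptors, Bnip3, Bnip3l and Fundc1, all had lower means in B3AR-Tg. Each had an unadjusted p under 0.05, as 10.6% of all tested genes had in that direction, and none passed the adjusted threshold. With libraries scaled by their totals alone, their unadjusted p-values were 0.109, 0.119 and 0.148 (edgeR). Map1lc3a had a higher mean and also fell short of the adjusted threshold. The differences of the 10 genes were small, with all 10 under 0.5 on the log2 scale, between -0.35 and 0.34. Their median log2 fold change was 0.07, against 0.01 over all genes tested.

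The 300-base windows around the annotated starts of Pink1 and Bnip3 are shown because these are the member that changed and the receptor gene with the most negative log2 fold change. RefSeq sequences on GRCm38.p6 were held for 8 of the 10 genes, and Map1lc3a and Bnip3l had none in that table. Each window runs from 250 bases before the start to 50 bases after it, 5′ to 3′ on the strand of the gene. That of Pink1 lies at chr4:138326247-138326546 on the minus strand and that of Bnip3 at chr7:138909457-138909756 on the minus strand. Capitals mark CACGTG, a palindromic motif that transcription factors of the TFEB family and others can bind.
Pink1: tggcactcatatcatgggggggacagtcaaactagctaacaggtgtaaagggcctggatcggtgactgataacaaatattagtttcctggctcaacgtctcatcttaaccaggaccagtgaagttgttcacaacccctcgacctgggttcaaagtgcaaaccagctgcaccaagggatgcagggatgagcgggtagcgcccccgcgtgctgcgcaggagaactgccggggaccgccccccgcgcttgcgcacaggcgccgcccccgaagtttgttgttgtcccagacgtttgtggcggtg
Bnip3: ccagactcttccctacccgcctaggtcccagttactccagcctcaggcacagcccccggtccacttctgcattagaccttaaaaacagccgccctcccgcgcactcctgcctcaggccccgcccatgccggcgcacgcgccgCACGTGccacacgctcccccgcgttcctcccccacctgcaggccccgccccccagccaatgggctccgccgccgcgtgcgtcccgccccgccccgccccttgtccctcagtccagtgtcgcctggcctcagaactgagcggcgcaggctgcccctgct
Searched on both strands, CACGTG was found once in the Bnip3 window, where it begins 108 bases before the start, and in none of the other 7 windows. It is present in 7.15% of the 32817 windows of this length in the table. The core of the antioxidant response element, TGACNNNGC, was found in the Map1lc3b window only and is present in 12.4% of all windows of the table. No window held both motifs. A match describes these letters and is not evidence of binding.

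Pink1 (ENSMUSG00000028756, chromosome 4) is the gene of the kinase that marks damaged mitochondria. Levels are given as CPM, counts scaled to a common library size with TMM factors. In WT they ranged from 342 to 416, with a median of 370. In B3AR-Tg they ranged from 362 to 527, with a median of 493. Of the 8 B3AR-Tg animals, 6 lay above the highest WT animal, and replicates 6 and 7, at 399 and 362 CPM, lay within the WT range. The means were 374 ± 25.5 CPM in WT animals and 471 ± 60.3 CPM in transgenic ones (SD, n = 8 each). The 95% interval of the fold ran from 1.12 to 1.42. The call was near the threshold: it was lost when WT replicate 1 (adjusted p = 0.0512), WT replicate 4 (0.0567), B3AR-Tg replicate 2 (0.0517) or B3AR-Tg replicate 5 (0.0519) was left out, and the log2 fold change stayed between 0.31 and 0.38 over all 16 such removals. It was also lost with the level of other-cell markers as a term (0.27, adjusted p = 0.319).

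**Figure D1:**
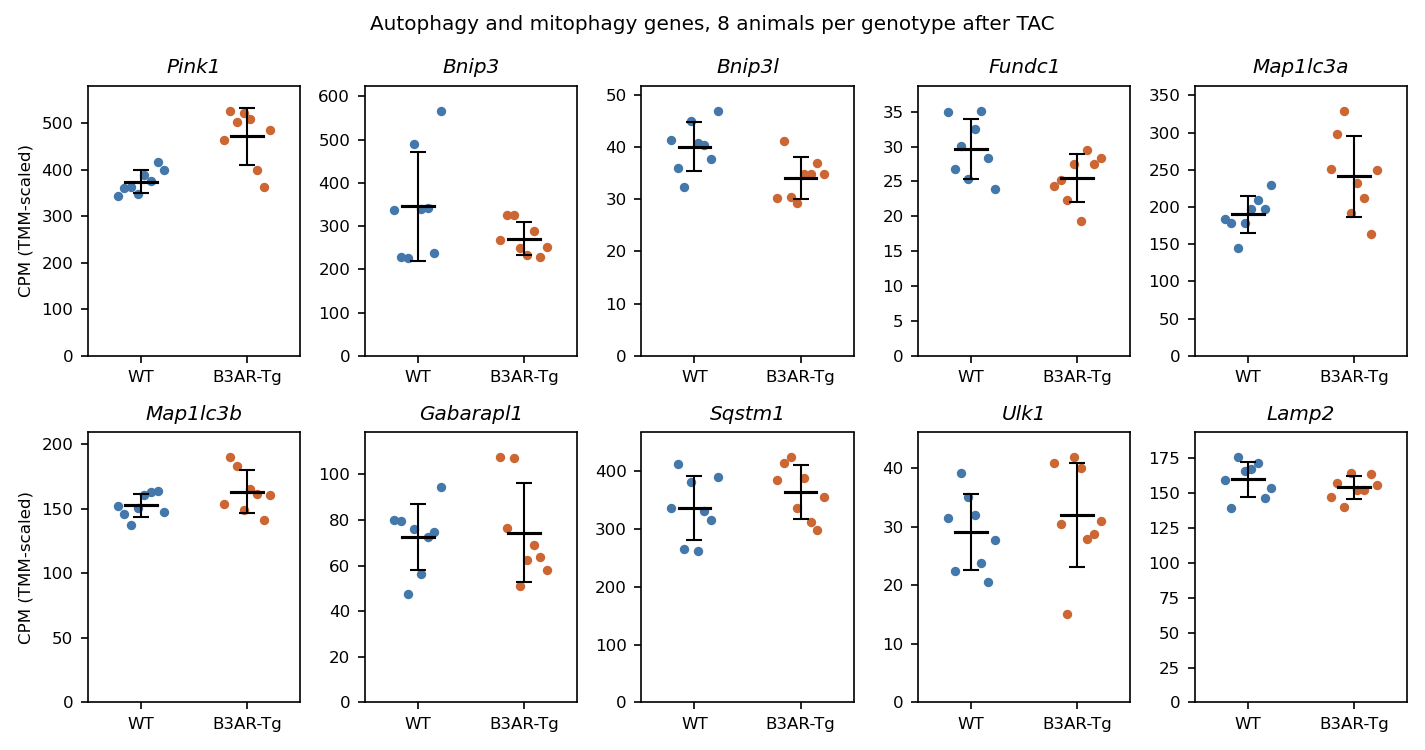
Level of each of the 10 genes in every animal (y axis: CPM scaled with TMM factors, each panel from 0; x axis: genotype). Points are animals, bars are means and whiskers are SDs over 8 animals; 6 of the 8 B3AR-Tg points of Pink1 lie above all WT points, and in the other panels the ranges overlap more.

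Bnip3 (ENSMUSG00000078566, chromosome 7) encodes an outer membrane receptor that is induced when oxygen is low. In WT it ranged from 226 to 567 CPM with a median of 338, and in B3AR-Tg from 229 to 325 CPM with a median of 259. The WT animals were spread widely: replicates 4 and 8 stood at 489 and 567 CPM, above every other animal of either genotype, while the lowest WT animals were level with the lowest B3AR-Tg animals. The coefficient of variation was 36.2% in WT and 13.996% in B3AR-Tg. No B3AR-Tg animal exceeded the WT median. The log2 fold change was -0.35 (standard error 0.17, unadjusted p = 0.0484, adjusted p = 0.254 by edgeR). It was -0.21 without WT replicate 8. Transcripts of 3 other genes in the table match Bnip3 at 95% identity or more over at least 200 bases. Their counts came to 3.44% of those of Bnip3. Gm45507 and AC160336.1 match it too but are absent from the deposited table, so their counts are not known. Gm45507 lies on the opposite strand and shares 504 exonic bases with Bnip3 in GENCODE M21. How many reads of Bnip3 could have been assigned either way is not known.

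Bnip3l (ENSMUSG00000022051, chromosome 14) encodes NIX, the closest relative of BNIP3, known for clearing mitochondria from maturing red blood cells. Its WT values ran from 32.3 to 47.0 CPM with a median of 40.6, and its B3AR-Tg values from 29.2 to 41.2 CPM with a median of 34.8. Replicates 1, 3 and 4 of B3AR-Tg lay below every WT animal, and 1 of 8 B3AR-Tg animals was above the WT median. The log2 fold change was -0.23 (standard error 0.09, unadjusted p = 0.0164, adjusted p = 0.145). Fundc1 (ENSMUSG00000025040, chromosome X), the gene of a receptor linked to mitophagy in low oxygen, ran from 24.0 to 35.2 CPM in WT (median 29.3) and from 19.4 to 29.4 CPM in B3AR-Tg (median 26.3). Its groups overlapped over much of their range, with replicates 3 and 5 of B3AR-Tg below every WT animal. Its log2 fold change was -0.22 (standard error 0.10, unadjusted p = 0.0469, adjusted p = 0.252). Without adjustment, 10.6% of all tested genes passed 0.05 as lower in B3AR-Tg.

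**Figure D2:**
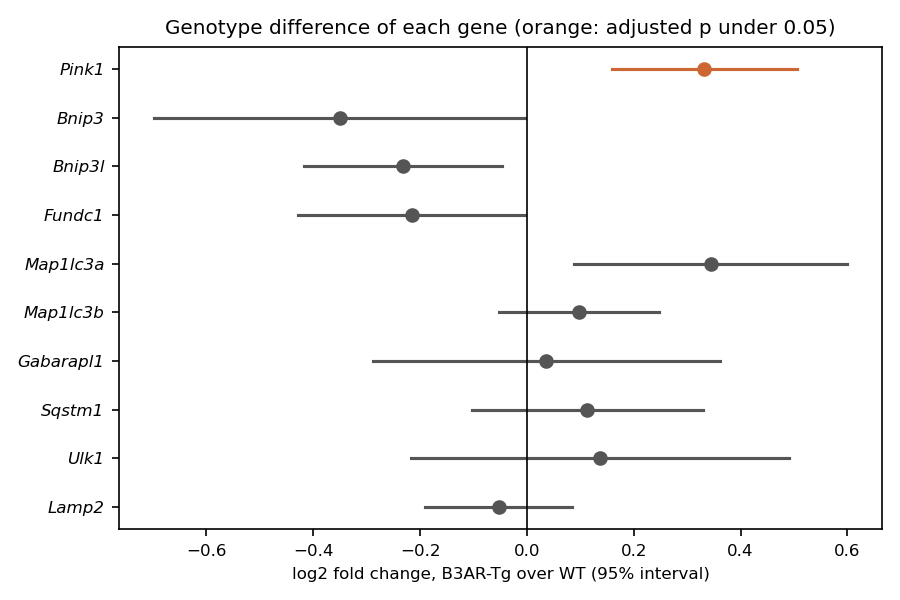
Log2 fold change of each gene, B3AR-Tg over WT (x axis), with its unadjusted 95% interval as a line and the estimate as a point; orange marks an adjusted p under 0.05. Pink1 alone is orange at 0.33, the estimates of Bnip3, Bnip3l and Fundc1 lie left of 0, and the interval of Lamp2 is the narrowest.

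Because Pink1 and the 3 receptor genes among the 10 had estimates of opposite sign, the ratio of Pink1 to each was also read within each animal. Such a ratio does not depend on how libraries are scaled. No ratio was read for the other 3 listed receptor genes, Bcl2l13, Fkbp8 and Phb2 (log2 fold changes 0.26, -0.03 and -0.09). The ratios shown were chosen after the differences were seen and are given without a test. They pair a gene with a positive estimate with genes with negative ones, so higher ratios in B3AR-Tg follow from the choice. Pink1 had a median of 9.44 counts per count of Bnip3l in WT (range 7.75 to 11.3) and 14.3 in B3AR-Tg (range 9.80 to 17.8). In 7 of 8 B3AR-Tg animals the ratio was above every WT animal, and replicate 7 was the exception. For Fundc1 the median ratio was 12.8 in WT (9.77 to 16.6) and 19.1 in B3AR-Tg (13.1 to 26.3), with 6 of 8 B3AR-Tg animals above all WT animals. For Bnip3 it was 1.12 in WT (0.701 to 1.74) and 1.68 in B3AR-Tg (1.38 to 2.18), and 3 of 8 were above all WT animals. The median ratios in B3AR-Tg were thus 1.51, 1.49 and 1.49 times those in WT for Bnip3l, Fundc1 and Bnip3.

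**Figure D3:**
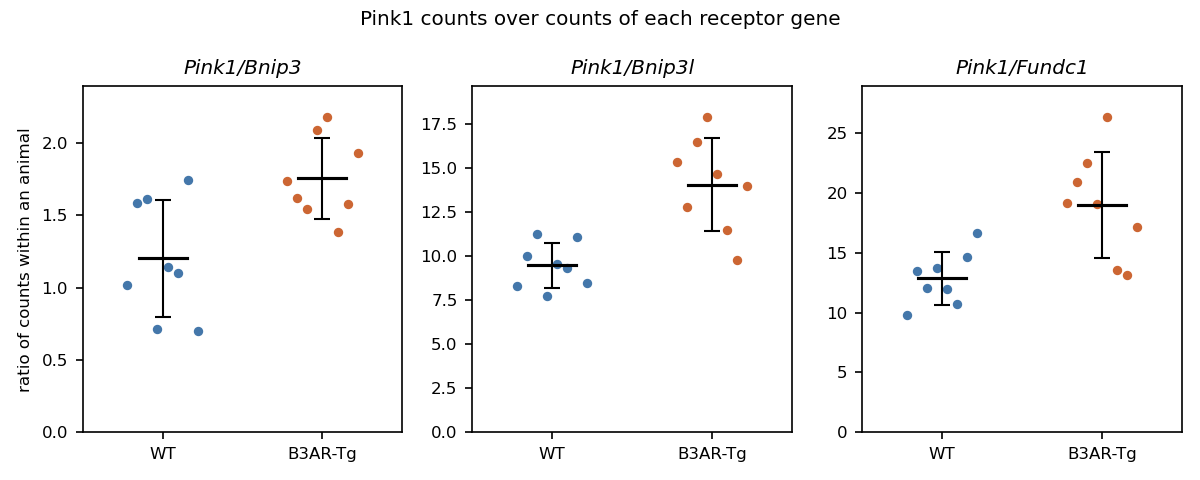
Counts of Pink1 divided by counts of Bnip3, Bnip3l or Fundc1 in the same animal (y axis, from 0), by genotype (x axis), with means and SD over 8 animals. All 8 B3AR-Tg animals are above the WT median in each panel, and separation from the WT range is widest for Bnip3l, with 7 of 8 above it.

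Among the ATG8 genes, Map1lc3a and Map1lc3b encode the 2 LC3 proteins whose lipid-bound form is the common marker of autophagosomes. Map1lc3a (ENSMUSG00000027602, chromosome 2) ranged from 144 to 230 CPM in WT (median 191) and from 164 to 330 CPM in B3AR-Tg (median 241), and 5 of 8 B3AR-Tg animals were above the highest WT animal. Replicate 7 was the lowest of B3AR-Tg, and replicates 2 and 3 were the highest at 298 and 330 CPM. The log2 fold change was 0.34 (standard error 0.12, unadjusted p = 0.0106, adjusted p = 0.113), and the adjusted p was 0.0378 without B3AR-Tg replicate 7. Without adjustment, 8.71% of all tested genes passed 0.05 as higher.

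Map1lc3b (ENSMUSG00000031812, chromosome 8) varied less, from 137 to 163 CPM in WT (median 151) and from 141 to 190 CPM in B3AR-Tg (median 161). Only replicates 2, 3 and 5 of B3AR-Tg were above the WT range. Its log2 fold change was 0.10 (adjusted p = 0.487), with a 95% interval of the fold from 0.964 to 1.19. Gabarapl1 (ENSMUSG00000030161, chromosome 6), a relative of LC3 in the GABARAP branch of the family, ranged from 47.5 to 94.4 CPM in WT (median 75.3) and from 51.2 to 108 CPM in B3AR-Tg (median 66.2). Replicates 1 and 3 of B3AR-Tg were above all WT animals and the other 6 lay within the WT range. The log2 fold change was 0.04 (adjusted p = 0.933), and its sign changed in 7 of 27 alternative settings. The remaining relatives were at 118 ± 12.3 and 109 ± 16.03 CPM (Gabarap) and at 47.3 ± 4.63 and 44.6 ± 3.11 CPM (Gabarapl2) in WT and B3AR-Tg, with adjusted p-values of 0.507 and 0.578.

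Sqstm1 (ENSMUSG00000015837, chromosome 11) encodes p62, an adaptor that binds ubiquitin on cargo and LC3 on the membrane. It ranged from 262 to 412 CPM in WT (median 334) and from 298 to 424 CPM in B3AR-Tg (median 370). The groups overlapped almost fully, with 2 of 8 B3AR-Tg animals above the WT range. Its log2 fold change was 0.11 (adjusted p = 0.588), with a 95% interval of the fold from 0.931 to 1.26. Mrnip lies on the opposite strand and shares 580 exonic bases with Sqstm1 in GENCODE M21, and its counts were 0.315% of those of Sqstm1.

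Ulk1 (ENSMUSG00000029512, chromosome 5), the kinase gene at the head of the pathway, had the lowest counts per length of the 10. It ranged from 20.6 to 39.1 CPM in WT (median 29.6) and from 15.03 to 41.9 CPM in B3AR-Tg (median 30.8). B3AR-Tg replicates 1, 4 and 5 were above the WT range and replicate 3 was below it, so the spread in B3AR-Tg enclosed that of WT. Its log2 fold change was 0.14 (adjusted p = 0.709), with a 95% interval of the fold from 0.860 to 1.40, which includes no difference. Lamp2 (ENSMUSG00000016534, chromosome X), at the lysosomal end, varied least of the 10 in B3AR-Tg, with a coefficient of variation of 5.27%. It ranged from 140 to 176 CPM in WT (median 163) and from 141 to 165 CPM in B3AR-Tg (median 154), with every B3AR-Tg animal inside the WT range. Its log2 fold change was -0.05 (adjusted p = 0.714), and the 95% interval of the fold, from 0.876 to 1.06, was the narrowest of the 10 on the log2 scale. Lamp1, its close relative, was at 315 ± 42.8 CPM in WT animals and 298 ± 32.9 CPM in transgenic ones (adjusted p = 0.686).

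Levels of different genes were compared per kilobase of exon in GENCODE M21. In WT the mean CPM per kilobase was 186 ± 67.4 for Bnip3, 171 ± 22.8 for Map1lc3a, 140 ± 9.55 for Pink1 and 119 ± 19.7 for Sqstm1, a leading group in which the ranges of neighbours overlapped. Gabarapl1 (39.9 ± 8.01), Lamp2 (31.8 ± 2.50) and Map1lc3b (29.4 ± 1.77) followed, also overlapping with each other. Fundc1 (12.9 ± 1.86) and Bnip3l (12.2 ± 1.44) lay close together, and Ulk1 was the lowest at 5.55 ± 1.24. In B3AR-Tg the highest means on this scale were those of Map1lc3a (217 ± 48.7) and Pink1 (176 ± 22.6), with Bnip3 at 146 ± 20.5. Exon lengths came from an annotation, which does not show which transcripts these cells made.

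The wider pathway was read from a list of 113 genes in 12 roles that includes the 10. Of the other 103 genes, all were tested, 1 was higher in B3AR-Tg, 0 were lower and 102 did not pass (edgeR). That is 0.971% of them, against 4.91% of all genes tested. Without adjustment, 13 had a p under 0.05 as higher and 5 as lower, where 19.3% of all tested genes had one in either direction. DESeq2 called 3 of the 103. The median log2 fold change of the 103 was 0.04, against 0.01 over all tested genes, and 100 of them lay within 0.5 of 0.

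The gene that rose was Npc1 (ENSMUSG00000024413, chromosome 18), which encodes the lysosomal membrane protein that exports cholesterol. It ranged from 13.95 to 33.8 CPM in WT (median 20.7) and from 31.8 to 59.8 CPM in B3AR-Tg (median 37.9). In 7 of 8 B3AR-Tg animals it was above every WT animal. Its level was 1.82-fold that of WT, or 0.86 as a log2 fold change (standard error 0.15, adjusted p = 0.00447). It passed without each of the 16 animals in turn, and it did not pass with the level of other-cell markers as a term (0.81, adjusted p = 0.126). Npc1 shares 192 exonic bases with Rmc1 on the opposite strand in GENCODE M21, and the counts of Rmc1 came to 71.8% of those of Npc1. Whether counting used the strand was not stated, so reads of the shared bases could have been assigned to either gene. How many reads this affected is not known. In the basic set of GENCODE M21 transcripts, the shared bases are 192 of the 5224 exonic bases of Npc1. Among all its transcripts, the longest match of Npc1 with Rmc1 was 323 bases at 100% identity. Neither these lengths nor the ratio of the counts measures the number of reads affected. Rmc1 had a log2 fold change of 0.38 (adjusted p = 0.0609). The other 14 non-member genes of the lysosome role did not pass.

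Apart from Pink1 and Npc1, no listed gene passed. The 8 genes of the VPS34 lipid kinase complex, which makes the membrane lipid that recruits later factors, had the most positive median of the roles, 0.26, with 6 higher and 2 lower estimates. Becn1, the gene of its subunit beclin 1, was at 37.9 ± 8.25 CPM in WT animals and 35.3 ± 2.35 CPM in transgenic ones (log2 fold change -0.11, adjusted p = 0.655). The 6 transcription factor genes all had positive estimates, between 0.04 and 0.18, and 0 passed at an unadjusted p under 0.05. Tfeb, whose protein switches on lysosomal genes, was at 9.11 ± 1.49 CPM in WT animals and 10.2 ± 1.20 CPM in transgenic ones (log2 fold change 0.17, adjusted p = 0.459). The 10 ATG8 conjugation genes had a median of 0.03, and the 13 fusion genes one of 0.00.

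Bcl2l13, a further outer membrane receptor gene, was chosen after its values were seen because it came closest among the receptors. It was at 52.2 ± 4.40 CPM in WT animals and 62.7 ± 6.75 CPM in transgenic ones (log2 fold change 0.26, adjusted p = 0.0580), the opposite sign to Bnip3, Bnip3l and Fundc1. It passed with DESeq2, with voom, with library-size scaling and with the animal number as a term. Among the single-animal removals it passed only without WT replicate 3, B3AR-Tg replicate 2 or B3AR-Tg replicate 3. Under the other alternative settings, among them RLE scaling, the replicate block and the other-cell marker term, it did not pass. Oma1, a mitochondrial protease gene chosen in the same way, had a log2 fold change of 0.33 (adjusted p = 0.0742). It passed with DESeq2, with library-size scaling and without WT replicate 6 or WT replicate 7, and under no other alternative setting.

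**Figure D4:**
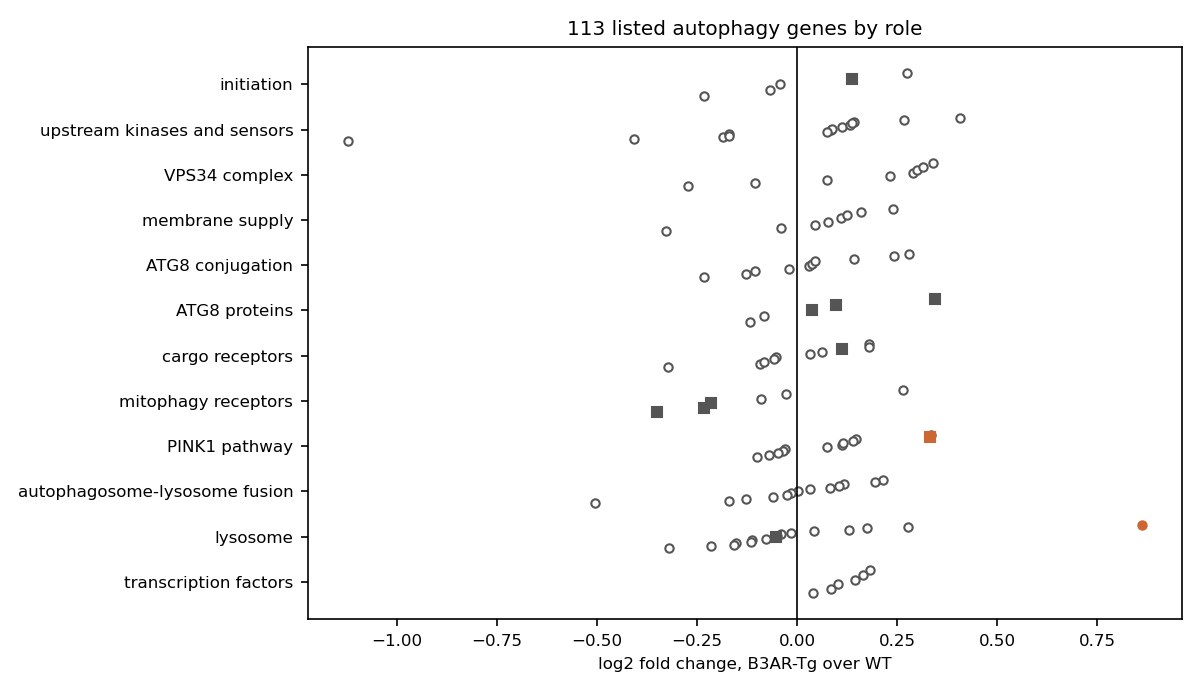
Log2 fold change of B3AR-Tg over WT (x axis) for the 113 listed genes, grouped by role (y axis); squares are the 10 genes described above, circles the other 103, and orange marks an adjusted p under 0.05. Pink1 at 0.33 and Npc1 at 0.86 are the orange points; the lowest point, Ddit4 at -1.12, did not pass.

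How the genes varied between animals of 1 genotype was described by correlating log2 CPM over 8 animals, for 45 pairs in each genotype. Of the 90 relations, 1 passed after Benjamini-Hochberg adjustment. In WT, Bnip3 and Bnip3l were correlated with r = 0.941 (exact permutation p = 0.000174, adjusted 0.0156) and rho = 0.905 (exact permutation p = 0.00456, adjusted 0.205). Without the 2 animals farthest from the Bnip3 median, r was 0.985. The same pair in B3AR-Tg, where Bnip3 spanned a narrower range, had r = 0.0986 (exact permutation p = 0.806, adjusted 0.957), and the difference between genotypes was not tested. In B3AR-Tg the highest correlation was between Map1lc3a and Sqstm1, with r = 0.913 (exact permutation p = 0.00174, adjusted 0.0781) and rho = 0.905, and it did not pass. With library-size scaling, 0 of the 90 relations passed. The median correlation over the 45 pairs was 0.06 in WT and 0.04 in B3AR-Tg.

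Over all 16 animals, after each genotype's mean was subtracted, the genes most like Pink1 were Gadd45g (r = 0.918, rho = 0.832), Rrad (r = 0.910, rho = 0.906) and Macrod1 (r = 0.874, rho = 0.862). They were picked for this likeness from 10945 genes, so the values are a description. None of these 3 passed between genotypes (adjusted p from 0.221 to 0.379).

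The preparations differed between genotypes in more than these genes. Library totals ranged from 5985335 to 14365864 counts. Markers of myocytes were abundant in every animal, at a summed 37102 to 48555 CPM in WT and 44282 to 52284 CPM in B3AR-Tg (exact permutation p = 0.00544, adjusted 0.0136 over 10 measures). Of 26 markers of fibroblasts, endothelial cells, leukocytes and mural cells, 20 were tested, 7 were lower in B3AR-Tg and 0 were higher, and none was at 0 in all animals. Their summed level was 237 to 471 CPM in WT and lay between 96.3 and 319 CPM in B3AR-Tg. Fibroblast markers took 45.5 to 190 CPM in WT and 12.0 to 65.1 CPM in B3AR-Tg. Fibroblast markers gave 5 of the 7 calls and endothelial markers 2, while the 2 leukocyte and 5 mural markers tested gave 0. Among these lists, only the fibroblast sum passed after adjustment (exact permutation, adjusted p = 0.00699). Adjusted values were 0.0541 for the endothelial and leukocyte sums alike, and 0.828 for the mural sum. The mural sum averaged 104 CPM for WT animals, against 101 CPM for transgenic ones. In RNA from many cells, fewer cells of a type and less RNA per cell cannot be told apart. All 5 load markers tested (Nppa, Nppb, Myh7, Acta1 and Ankrd1) were lower in B3AR-Tg, with a summed level of 4805 to 18137 CPM in WT and 1920 to 6506 CPM in B3AR-Tg.

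With the mean log2 CPM of the 26 other-cell markers as a covariate, the log2 fold change of Map1lc3a was 0.10 (edgeR adjusted p = 0.836). It was 0.34 without the covariate, and that of Pink1 was 0.27 with it and 0.33 without. The receptor genes among the 10 did not shrink: Bnip3 was at -0.54 with it and -0.35 without, and Bnip3l at -0.33 and -0.23. Fundc1 was at -0.22 either way. With the covariate, none of the 10 genes passed. In that fit 18 genes passed in all, and the covariate differed with genotype itself, at 2.37 ± 0.325 in WT animals and 1.57 ± 0.545 in transgenic ones (exact permutation p = 0.00218). The part of other cells in the differences of the 10 genes was not tested beyond this. No fit held a term for the load markers, so the part of load was not tested. Within a genotype, Pink1 and the other-cell level had r = 0.293 in WT (exact permutation p = 0.476) and r = -0.415 in B3AR-Tg (exact permutation p = 0.310), with adjusted values of 0.794 and 0.635.

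Of 40 relations of the 10 genes with the other-cell and load levels over 8 animals of a genotype, 2 passed after adjustment. Map1lc3b was higher where other-cell markers were lower in B3AR-Tg, with r = -0.898 (exact permutation p = 0.00136, adjusted 0.0332) and rho = -0.929 (exact permutation p = 0.00223, adjusted 0.0893). Without the 2 animals farthest from the median marker level, r was -0.826. In WT the same relation had r = -0.016 (exact permutation p = 0.968, adjusted 0.970). Lamp2 was higher where they were lower in WT, with r = -0.912 (exact permutation p = 0.00166, adjusted 0.0332) and rho = -0.905 (exact permutation p = 0.00456, adjusted 0.0913), and r was -0.892 without the 2 farthest animals. In B3AR-Tg it had r = 0.352 (exact permutation p = 0.392, adjusted 0.699). Sqstm1 was higher in WT animals with more load marker RNA, with r = 0.879 (exact permutation p = 0.00632, adjusted 0.0843) and rho = 0.857, and this did not pass. In B3AR-Tg it had r = -0.238 (exact permutation p = 0.582, adjusted 0.841). The differences between genotypes in these relations were not tested.

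**Figure D5:**
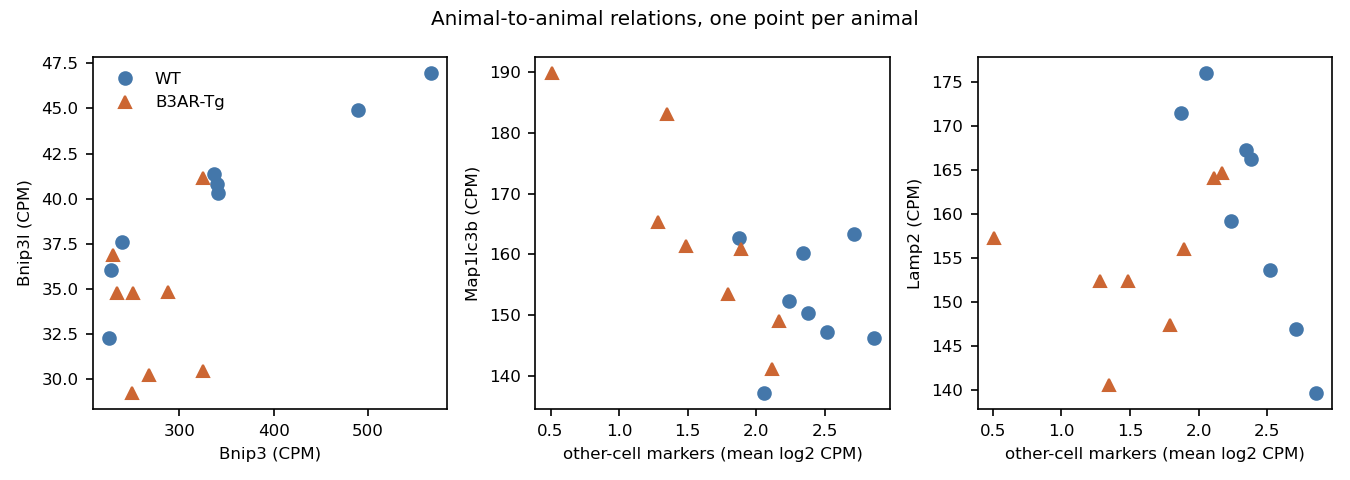
Each point is 1 animal, WT as circles and B3AR-Tg as triangles: Bnip3l against Bnip3 in CPM (left), and Map1lc3b and Lamp2 in CPM against the mean log2 CPM of 26 other-cell markers (middle and right). Bnip3 and Bnip3l line up in WT (r = 0.941), Map1lc3b falls with the marker level in B3AR-Tg (r = -0.898) and Lamp2 does so in WT (r = -0.912). These r values were computed on log2 CPM of the genes, not on the CPM plotted.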

How the data were processed

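RNA was taken from ventricular myocytes isolated by Langendorff perfusion and kept on plates for 1 hour, and stranded total RNA libraries were made from 500 ng after ribosomal RNA depletion, per the labels' protocols. The authors deposited whole-number counts per gene, 1 column per animal, with no normalization. Salmon and the build GRCm39 are named in the submitters' processing notes, with no version, and how Salmon's estimates became whole numbers is not given in the sources used here. Genotype and replicate number came from the sample titles, which number biological replicates 1 to 8 in each genotype.

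Genes were tested in edgeR 4.0.16 (R 4.3.3) by quasi-likelihood F test on the deposited counts, with genotype as the only term, TMM factors and filterByExpr (minimum count 10, minimum total 15). The two-sided p-values were adjusted by Benjamini-Hochberg over the 10945 genes tested, and 0.05 was the threshold. Standard errors were not taken from the model but derived from the test, as the absolute log2 fold change divided by the square root of F. Intervals are unadjusted 95% intervals built from these standard errors. Log2 CPM used a prior count of 2. Exact permutation tests used all 12870 ways to divide the animals for single values and, for correlations, the 40320 orders of 8 animals. Near copies were sought with BLAST 2.17.0 among GENCODE M21 transcripts, whose build, GRCm38, is not that of the notes, so the only positions given are those of the RefSeq promoter windows, on their own build. Library totals, from 5985335 to 14365864 counts, limit precision for low genes. The test was also run on simulated counts drawn without other-cell differences. The outcome is not reported here, and no statement here rests on it.

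Alternatives were RLE, upper quartile and library-size scaling, 2 other filters, DESeq2 1.42.0, voom of limma 3.58.1, the animal number or the other-cell marker level as a term, a block for the replicate number, removal of the mitochondrially encoded genes together with Gm20594, and removal of each animal in turn. The members, lists, tests and naming rule were chosen with earlier results of these data known. The rule named the 10 genes, listed genes past the threshold, Gabarap, Gabarapl2, Becn1, Tfeb and Lamp1 as relatives or partners, and the 3 genes most like the member with the smallest p. An item the rule also covers is not reported here.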

Additional observations from a re-analysis of the deposited data

Results flagged for a closer look

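Ulk1 was low in B3AR-Tg replicate 3. It stood at 15.03 CPM, while the other 7 transgenic animals held 27.9 to 41.9 CPM, and the gap to its nearest neighbour took 0.602 of the range of the group on the log2 scale. It was the only such gap among 34 groups of 8 animals searched for the named genes, where chance would give 1.7. Without this animal the log2 fold change of Ulk1 was 0.24 (edgeR adjusted p = 0.328).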

How the results depend on the processing

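Pink1 kept its direction under all 27 alternatives, with log2 fold changes from 0.27 to 0.41 and adjusted p-values from 0.00310 (DESeq2) to 0.319 (other-cell marker term), and it passed under 21 of them. Npc1 passed under 26 of 27, the exception being the other-cell marker term. The count of the 10 genes that passed went from 1 to 0 with the replicate block and with the other-cell marker term, and ranged from 0 to 2 when each animal was left out: it was 0 without WT replicates 1 or 4 or B3AR-Tg replicates 2 or 5, and 2 without B3AR-Tg replicate 7, where Map1lc3a passed. The count over all genes, 537, was 230 with the replicate block and 18 with the other-cell marker term, 804 with DESeq2 and 706 with voom, and 272 to 675 without each animal in turn (272 without WT replicate 4, 277 and 345 without B3AR-Tg replicates 5 and 8). Of the other 103 listed genes, 1 passed, against 4 with library-size scaling, 3 with DESeq2, 2 with voom, 2 with the animal number as a term, 0 with the other-cell marker term, and 1 to 4 without each animal in turn. It was 2 or more without WT replicates 3, 5, 6 or 7 or B3AR-Tg replicates 1, 2, 3 or 7. Of the gene pairs, 0 were correlated with library-size scaling, against 1. Values that changed sign, none of them past the threshold, were those of Map1lc3b (-0.050) and Becn1 (0.050) with the other-cell marker term and those of Lamp2 (0.032) and Gabarapl2 (0.0020) with library-size scaling. Gabarapl1 did so at -0.045 with voom, -0.054 with the animal number, -0.012 with the other-cell marker term, and between -0.055 and 0.100 without each animal in turn. The cause was not tested.

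Animals of the same replicate number did not deviate together (correlations from -0.219 to 0.0935, and 0 of 8 were most alike their own number), so the numbers do not pair the animals. With the replicate block, Pink1 had a log2 fold change of 0.32 (edgeR adjusted p = 0.111). Of the 10 genes, Ulk1 had the fewest counts in any library, 141.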
